A study of Mus musculus with 4 samples.

Results

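CD8 T cells of mouse prostate tumours were defined by 4 sums of unique molecular identifiers (UMIs, 1 per captured transcript molecule). Members were chosen by at least 2 UMIs of Cd3d, Cd3e and Cd3g together, at least 2 UMIs of Cd8a and Cd8b1 together, and 0 UMIs of Cd4 and of Foxp3, among cells that showed 200 genes or more and no more than 20% UMIs of mitochondrial genes. By this rule 255 cells of 3381 kept cells were CD8 T cells, 128 and 61 in the 2 TKO libraries and 17 and 49 in the 2 DKO libraries. TKO tumours had the genotype Nkx3.1CreERT2 with Smad4L/L and Pygo2L/L alleles, and DKO tumours carried Nkx3.1CreERT2 with Smad4L/L alleles but no floxed Pygo2. All 4 libraries thus share the Cre and every floxed allele other than Pygo2. The Cre is driven from Nkx3.1, a gene of the prostate epithelium, and becomes active after tamoxifen. The design text gives 10 and 17 weeks after tamoxifen and ties neither to a library. Tumours were dissociated, red cells lysed and Annexin V-binding cells removed, and the hashtagged suspensions were loaded together for droplet 3-prime sequencing. Separate animals behind the libraries are not stated in the sources used here, so every p-value reflects the spread between the libraries at hand and that spread may be technical.

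Cytotoxic T cells recognise peptides on class I molecules through a T cell receptor and the CD8 coreceptor, which is an alpha-beta or alpha-alpha dimer made from Cd8a and Cd8b1. Activated cells load granules with perforin, which opens the target membrane, and with granzymes, the proteases that enter through it. In tumours, repeated receptor signalling is known to give cells with inhibitory receptors such as PD-1, the product of Pdcd1, and with the nuclear factor TOX. A less differentiated pool that keeps the factor TCF-1, the product of Tcf7, is known to renew them.

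The markers of the class that the rule did not use were present in the members. Gzmk, the granzyme K gene, had a UMI in 73.3% of members, and Ccl5, a chemokine gene, in 94.5%. In neutrophils, gated by 20 or more UMIs of neutrophil markers and taken as cells that should lack both genes, these shares were 1.53% and 18% at a median of 6996 UMIs, against 13561 in the members. Nkg7, a granule membrane gene, had a UMI in 97.3% of members and 4.36% of neutrophils. Every member carried a UMI of a T cell receptor alpha or beta constant gene (Trac, Trbc1 or Trbc2). Both CD8 chains were seen in 230 members, Cd8b1 alone in 15 and Cd8a alone in 10, of which 8 had a UMI of a gamma or delta receptor constant gene. Ncr1, which encodes the NK receptor NKp46, had a UMI in 1.18% of members.

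The gate edge was described without a test. The 32 cells with a single Cd8 UMI that otherwise met the rule had 21 CPM (a gene's counts scaled to a common total of summed UMIs) of Gzmk. The 15 members at exactly 2 Cd8 UMIs had 132 CPM of Gzmk, and the 240 members with 3 or more had 206 CPM. Cells left out for a Cd4 UMI numbered 16 and cells left out for a Foxp3 UMI numbered 11. Ccl5, at 2749 and 4055 CPM in TKO and 4089 and 2974 CPM in DKO over all members, overlapped between genotypes. No member stood at the lower edge of the Cd3 sum.

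Summed over members, the libraries held 2174630 and 1008918 UMIs in TKO and 363652 and 1002373 UMIs in DKO, with medians of 12241 and 13872 UMIs per cell in TKO and 15166 and 16271 in DKO. DKO replicate 1, with 17 members, is therefore the least precise. No barcode was shared between libraries, and all 255 members had the hashtag of their own library as the leading hashtag, at a median of 97.9% of hashtag UMIs. Each library's gene counts in the members departed from those of every other library beyond counting error (ratio of chi-square to its degrees of freedom 6.12 to 11.6). Floxed genes do not check the labels here, because the Cre is driven from a gene of the prostate epithelium and the members are T cells. The part of each gene that the 3-prime reads cover relative to the floxed exons is also not given in the sources used here. Pygo2 had 9.66 and 10.9 CPM in TKO CD8 T cells and 11 and 6.98 CPM in DKO CD8 T cells (log2 fold change 0.20 ± 0.57, SE, n = 2 libraries per genotype). Smad4 differed by -0.15 ± 0.20 on the log2 scale, and neither passed the edgeR test (adjusted p = 0.99 for Pygo2 and 0.95 for Smad4).

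The share of kept cells that were CD8 T cells lay higher in the TKO libraries, without overlap with DKO. The share was 10.6% (95% exact binomial interval 8.92 to 12.5%) and 7.65% (5.90 to 9.72%) in TKO, against 2.76% (1.61 to 4.37%) and 6.46% (4.81 to 8.45%) in DKO. Intervals cover counting error only, and those of TKO replicate 2 and DKO replicate 2 overlap. The means were 9.12 ± 2.08% in TKO and 4.61 ± 2.62% in DKO (SD, n = 2), a difference of 4.52 percentage points with an exact two-sided permutation p of 0.333, the smallest that 2 against 2 libraries allow. Among Cd3-positive cells, those with at least 2 Cd3 UMIs, CD8 T cells made up 36.1% and 21.3% in TKO and 13.0% and 19.1% in DKO. The means were 28.7 ± 10.5% in TKO and 16.0 ± 4.31% in DKO (SD, n = 2), a difference of 12.6 points with the same exact permutation p of 0.333. Leaving out TKO replicate 1 lowered the 2 differences to 3.05 and 5.23 points, and leaving out DKO replicate 1 lowered the first to 2.67 points. Shares describe cells that survived dissociation and dead cell removal.

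**Figure D1:**
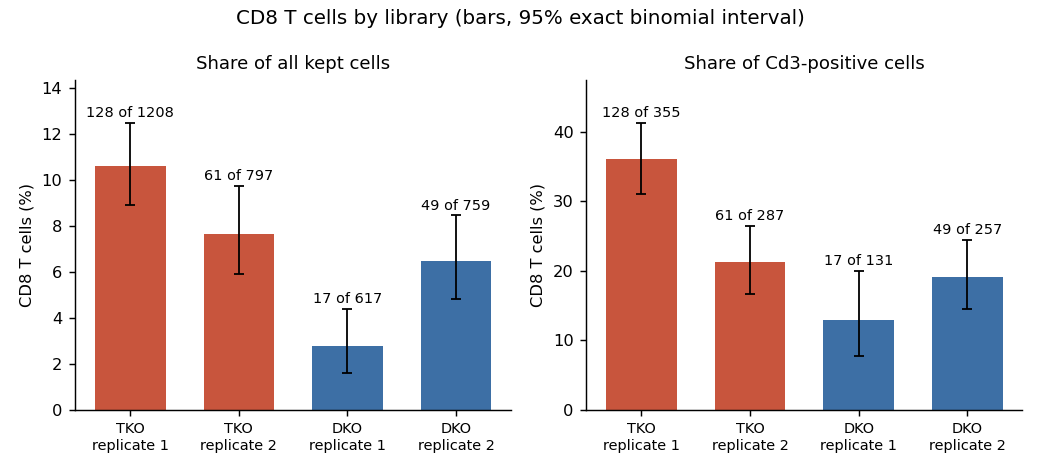
CD8 T cells as a percentage of all kept cells (left) and of Cd3-positive cells (right) in each library, with exact 95% binomial intervals and cell numbers above the bars. Both TKO libraries lie above both DKO libraries in each panel, with TKO replicate 1 highest at 10.6% and 36.1%, and TKO replicate 2 at 7.65% lies close to DKO replicate 2 at 6.46%.

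Some members carried RNA of another cell class. In 17 members (6.67%) more than 1% of UMIs came from marker genes of cells other than T and NK cells, from 1.24% to 8.29%, whereas the other 238 members held at most 0.79%. These 17 mixed cells had a median of 42808 UMIs against 13088.5 in the rest. They numbered 11 and 1 in TKO and 3 and 2 in DKO, and held 18.7% and 4.16% of the summed UMIs in TKO and 43.5% and 16.3% in DKO. Dendritic markers led in 6, fibroblast markers in 5, macrophage and monocyte markers in 5 and neutrophil markers in 1. The 2 deepest members, 1 in each DKO library, were led by fibroblast markers. The cell of DKO replicate 1 had 71627 UMIs with 8.17% from other classes, and that of DKO replicate 2 had 120635 UMIs with 8.29%. Every 1 of the 17 had at least 84.9% of its hashtag UMIs from its own library, which cannot show doublets formed within a library. Their part in each result was not tested beyond leaving them out. The genotype tests over all genes are given with and without them. Where CD8 T cells are compared with other gates below, leaving out mixed cells removed cells from those gates too. By the same limit of 1%, 8 of 136 conventional CD4 T cells and 3 of 91 NK cells were then left out. Shares and state counts by library, and the genotype levels of Ccl5, Gzma, Gzmb, Pygo2 and Smad4, include the mixed cells unless stated.

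**Figure D2:**
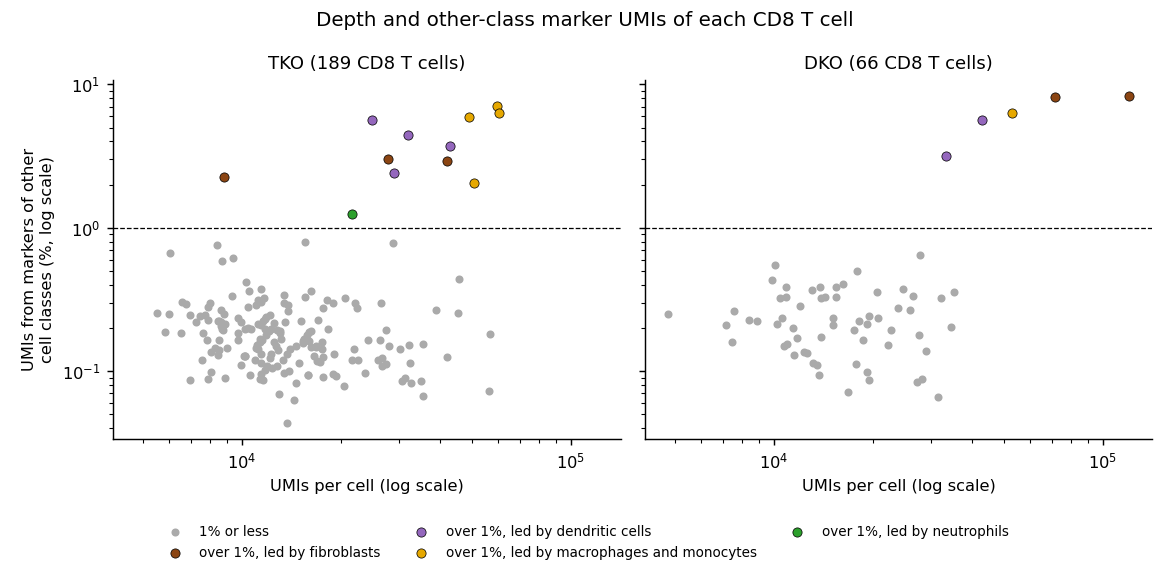
Each point is a CD8 T cell, in TKO (left) and DKO (right), placed by its UMIs (log scale) and by the percentage of its UMIs from markers of other cell classes (log scale), and colours give the leading class above the dashed line at 1%. The 17 mixed cells lie between 1.24% and 8.29% and the rest at 0.79% or less, and the 2 DKO cells led by fibroblast markers lie at the far right, at 8.17% and 8.29%.

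Within the CD8 T cells, granzyme K and granzyme B split the members without a boundary between them. Both Gzmk and Gzmb had a UMI in 94 members, Gzmk alone in 93, Gzmb alone in 32 and neither in 36. Gzmb had a UMI in 4.25% of neutrophils. The 32 cells with Gzmb alone were deeper, at a median of 23816.5 UMIs against 11591 in those with Gzmk alone, so depth differs between the groups as drawn. Pooled over libraries and given as a description with no test, cells with Gzmb alone had 1411 CPM of Xcl1, a chemokine gene for cross-presenting dendritic cells, and 179 CPM of Itgae, which encodes the integrin CD103. Xcl1 was not particular to them, at 948 CPM in cells with neither granzyme, and the libraries pooled here ranged from 121 to 637 CPM of Xcl1. Cells with Gzmk alone had 81.2 CPM of Xcl1 and 7.70 CPM of Itgae. The reverse held for Tox, at 363 CPM with Gzmb alone and 778 CPM with Gzmk alone, and for Pdcd1, at 314 and 615 CPM. Cells with neither granzyme had the highest levels among the 4 groups of Tcf7 (119 CPM), of Il7r, the interleukin-7 receptor gene (256 CPM), and of Klrk1, the gene of the activating receptor NKG2D (204 CPM).

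Most members had UMIs of exhaustion genes. Pdcd1 and Tox were both seen in 197 members (77.3%). By library these were 78.9% (70.8 to 85.6%) and 85.2% (73.8 to 93.0%) in TKO and 47.1% (23.0 to 72.2%) and 73.5% (58.9 to 85.1%) in DKO. The intervals of DKO replicate 2 overlap those of both TKO libraries. Each gene alone had a UMI in 2.83% of neutrophils. With every cell thinned to 4000 UMIs, a depth all 255 members reach, Pdcd1 was seen in 72.7% and 73.8% of members in TKO and 35.3% and 69.4% in DKO. Tcf7 with Pdcd1, the pair that marks progenitor cells in other studies of exhausted T cells, was found in 63 members, Tcf7 without Pdcd1 in 28 and Pdcd1 without Tcf7 in 151. Tcf7 was low, at 54.7 and 69.4 CPM in TKO and 79.7 and 45.9 CPM in DKO. A cell without a Tcf7 UMI may therefore still express it, and these counts do not size a progenitor pool. Cells with 3 or more UMIs of 20 G2 and M phase genes numbered 61 (23.9%), at 22.7% and 31.1% in TKO and 17.6% and 20.4% in DKO. Of those 61 cells, 35 had a Gzmb UMI, whereas of all 255 members 94 had one together with Gzmk and 32 without Gzmk. The 61 cells had a median of 18964 UMIs against 12295.5 in the rest, so depth differs between them. A link of Gzmb to cycling was not tested.

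**Figure D3:**
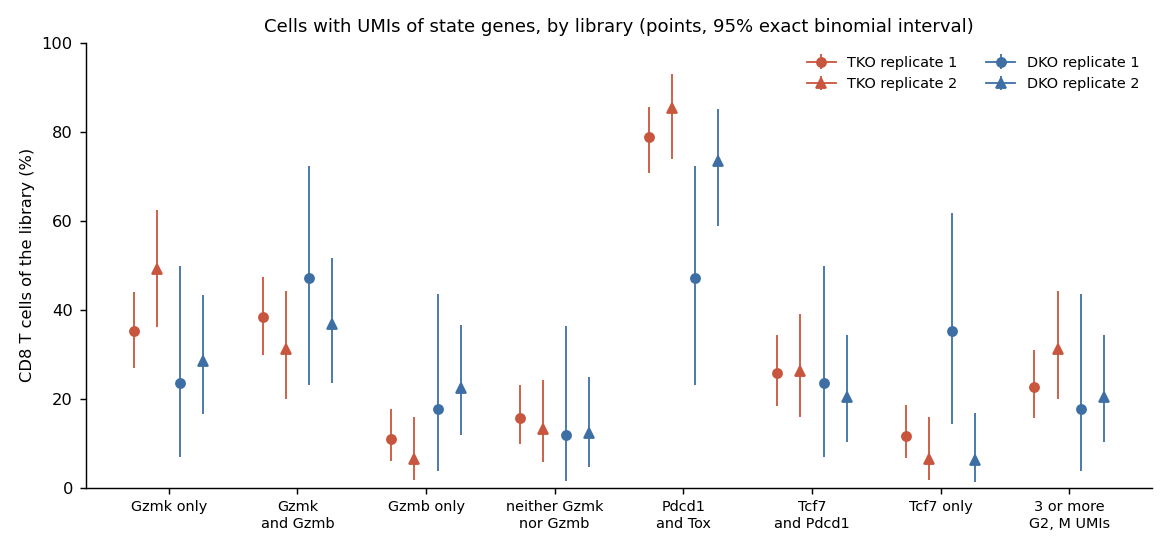
Percentage of the CD8 T cells of each library with UMIs of the named genes, TKO libraries left of DKO libraries, with exact 95% binomial intervals. Pdcd1 with Tox is the most common pattern, from 47.1% in DKO replicate 1 to 85.2% in TKO replicate 2, and the intervals of DKO replicate 1, with 17 cells, are the widest.

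Gene levels over a library could rest on a single cell. Gzma, the granzyme A gene, had 1000 and 7.93 CPM in TKO and 297 and 253 CPM in DKO, but 1 cell of TKO replicate 1 held 2060 of its UMIs, 80.9% of all Gzma UMIs in the members. Without the top cell of each library Gzma stood at 53.8 and 6.16 CPM in TKO and 140 and 57.9 CPM in DKO. Gzmb had 672 and 377 CPM in TKO and 247 and 1218 CPM in DKO, and without each library's top cell 434 and 120 CPM in TKO and 163 and 982 CPM in DKO. The genotypes overlap for Gzmb in both accounts.

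Receptor variable segments, which lie far from the 3-prime end that is read, were seen in a part of the members. A Trbv segment, the variable part of the beta chain, had a UMI in 42 and 22 members of TKO and 3 and 8 of DKO. In TKO replicate 1 Trbv16 led with 11 of the 42 cells with a segment. Over all members it was seen in 11 of 128 there and in 3 of 127 in the other libraries. In TKO replicate 2 Trbv13-2 led with 8 of the 22 cells with a segment. Over all members it was seen in 8 of 61 there and in 1 of 194 elsewhere. Only 75 of all 255 members had any Trbv segment, and that share was lower in DKO (17.6% and 16.3%) than in TKO (32.8% and 36.1%). Members without a segment could not show either one. The alpha segments Trav16 and Trav13n-1 led in the same libraries, in 12 and 6 cells. Trav13n-1 was seen in 0 of 194 members elsewhere, which allows a share of up to 1.55% of members with a detected UMI. Only 82 of all 255 members had any Trav segment, so this does not bound the share of cells that carry it. Trbv16 and Trav16 shared 3 cells, out of 6 Trbv16 cells with any alpha segment, and Trbv13-2 and Trav13n-1 shared 3 cells, out of 4. Many variable segments have near-identical copies, so the assignment of a read to 1 of them is uncertain, and clonal identity was not measured.

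CD8 T cells were set against the conventional CD4 T cells of the same libraries, which had at least 2 Cd3 UMIs, at least 1 Cd4 UMI and 0 Cd8 and Foxp3 UMIs (41 and 66 cells in TKO, 13 and 16 in DKO). Counts were summed per library and gate and tested with edgeR with the library as a block. Of 7054 genes, 101 were higher in CD8 T cells (1.43%) and 168 lower (2.38%). The genes of the gates were left out of these counts. The CD4 gate may hold other T cells. Its sums had 125, 0, 9.54 and 0 CPM of Trdc, a delta receptor constant gene, in TKO replicates 1 and 2 and DKO replicates 1 and 2. A cell with 0 Foxp3 UMIs may also still express Foxp3. Which cells of the gate gave the genes that were lower in CD8 T cells was not tested. Cytotoxic genes and receptors of the NK type led the higher side, and helper cytokine, costimulatory and lymphoid homing genes the lower side.

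Of the granule genes, 8 of 16 tested were called higher and 1 lower, with a median log2 fold change of 1.34 against 0.02 over all genes tested. Gzmb had 672, 377, 247 and 1218 CPM in CD8 T cells of TKO replicates 1 and 2 and DKO replicates 1 and 2, against 11.2, 17.8, 4.77 and 8.21 CPM in CD4 T cells (log2 fold change 5.69 ± 0.75, SE, adjusted p = 0.0072). All CD8 sums lay above all CD4 sums. Gzmk had 241, 233, 135 and 114 CPM in CD8 T cells and 78.7, 35.6, 62.0 and 20.5 CPM in CD4 T cells (1.93 ± 0.28, adjusted p = 0.0015). Gzmk was thus higher in 4 of 4 libraries, with a smaller fold than Gzmb. Prf1, the perforin gene, had 44.1, 34.7, 24.7 and 18 CPM in CD8 T cells and 17.7, 1.48, 4.77 and 0 CPM in CD4 T cells (2.23 ± 0.54, adjusted p = 0.043). The other granule genes called higher were Nkg7, Gzmc, Ctsw, Cst7 and Fasl, and Srgn, the granule proteoglycan gene, was lower. Without mixed cells the same counts of 8 and 1 were called.

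Receptors of the NK type were called higher in 5 of 14 tested and lower in 0, with a median of 1.83, or 1.39 with genes at 0 in CD4 T cells put at the bound given by 3 UMIs over the gate. Klrc1, which encodes the inhibitory receptor NKG2A, had 109, 95.2, 209 and 107 CPM in CD8 T cells and 22.5, 1.48, 19.1 and 20.5 CPM in CD4 T cells (3.06 ± 0.43, adjusted p = 0.0021). Cd7 had 137, 134, 13.7 and 241 CPM against 8.03, 2.96, 4.77 and 12.3 CPM (4.37 ± 0.83, adjusted p = 0.029), and Klrk1 had 84.2, 67.4, 165 and 191 CPM against 48.2, 35.6, 38.2 and 24.6 CPM (1.59 ± 0.37, adjusted p = 0.043). Eomes, a T-box factor gene of cytotoxic lymphocytes, had 151, 143, 63.2 and 79.8 CPM in CD8 T cells and 20.9, 19.3, 38.2 and 4.10 CPM in CD4 T cells (2.50 ± 0.36, adjusted p = 0.0016). Runx3, the factor known to silence Cd4 in cytotoxic T cells, was also called higher, with 437, 520, 363 and 607 CPM in CD8 T cells and 194, 135, 205 and 152 CPM in CD4 T cells.

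The largest folds included genes with no textbook part in cytotoxicity. Bend4, which encodes a BEN domain protein, had 177, 215, 113 and 140 CPM in CD8 T cells and 20.9, 0, 19.1 and 4.10 CPM in CD4 T cells (4.02 ± 0.56, adjusted p = 0.0036). Without mixed cells the fold was 6.87 ± 0.45. It then rests on CD4 sums at or near 0, with 2.29, 0, 0 and 4.87 CPM, so its size is uncertain. Samd3 (3.69 ± 0.44) and Setbp1 (2.42 ± 0.23), a gene of a SET-binding protein, were also higher. Tcrg-C2, a gamma receptor constant gene, had 109, 143, 44.0 and 71.8 CPM in CD8 T cells and 19.3, 2.96, 0 and 0 CPM in CD4 T cells (3.87 ± 0.52, adjusted p = 0.0011). It has close copies (Tcrg-C1 and others), so its reads are uncertain, and a gamma transcript does not show a gamma-delta receptor. Mki67, a proliferation gene, had 93.3, 169, 5.50 and 82.8 CPM against 11.2, 2.96, 0 and 28.7 CPM (3.34 ± 0.66, adjusted p = 0.018).

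The RNA gene Gm44174, named after its values were seen, had 90.1, 89.2, 104 and 86.8 CPM in CD8 T cells and 0 UMIs in every CD4 and NK sum. Against the bound of 3 UMIs over the gate it was at least 52.7-fold higher than in CD4 T cells and at least 45.6-fold higher than in NK cells. Gm44174 lies on the plus strand of chromosome 6 (71353035 to 71373284, GRCm38), between Cd8b1 (71322788 to 71337494) and Cd8a (71373427 to 71379173), and ends 142 base pairs before Cd8a. It thus neighbours 2 genes that chose the members, and whether its reads come from transcripts of Cd8a was not tested.

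On the lower side, naive and memory genes were called lower in 5 of 15 tested and higher in 0 (median -0.94), among them Il7r, S1pr1, Ccr7 and Bach2. Il7r had 140, 135, 104 and 104 CPM in CD8 T cells and 549, 470, 572 and 488 CPM in CD4 T cells (-2.11 ± 0.16, adjusted p = 2.3e-05). Il1rl1, the interleukin-33 receptor gene, had 1.38, 0.99, 0 and 2.99 CPM against 48.2, 29.6, 239 and 148 CPM (-5.60 ± 0.46, adjusted p = 3.7e-05). Ccr6 (-5.26 ± 0.60), a chemokine receptor gene, Il17a (-3.74 ± 0.68), a cytokine gene of type 17 cells, Tnfrsf4 (-3.83 ± 0.37), which encodes OX40, and Cd40lg (-3.58 ± 0.58), the helper ligand gene, were lower in 4 of 4 libraries. Tnfsf8, the CD30 ligand gene, had 35.4, 57.5, 27.5 and 54.9 CPM in CD8 T cells and 405, 680, 420 and 378 CPM in CD4 T cells (-3.46 ± 0.46, adjusted p = 0.0048). Ramp3, a receptor-modifying protein gene, had 77.3, 75.3, 66.0 and 82.8 CPM against 501, 925, 386 and 451 CPM (-2.87 ± 0.27, adjusted p = 0.00017). Nav2 was also lower (-4.09 ± 0.41). The list of inhibitory receptor and exhaustion genes went both ways, with a median of 0.33 among 20 tested. Cd160, Rgs16 and Cd38 were called higher and Tnfrsf4, Ctla4 and Tnfrsf18 lower. The list also holds genes that do not encode inhibitory receptors, such as Tnfrsf4 and Rgs16. Without mixed cells Rgs16 and Cd38 were not called, and Cd160, Nr4a2 and Entpd1 were higher. Cd160 had 40.9, 26.8, 22.0 and 48.9 CPM in CD8 T cells and 0 UMIs in the CD4 sums. The calls of Gzmb and Il17a were lost without DKO replicate 2 (adjusted p = 0.082 and 0.096) and without TKO replicate 2 (0.056 and 0.066), and that of Gzmb also without TKO replicate 1 (0.073). Prf1 and Klrk1 were not called without DKO replicate 1 (adjusted p = 0.062 and 0.18), DKO replicate 2 (0.099 and 0.089) or TKO replicate 2 (0.23 and 0.057). Cd7 lost its call without TKO replicate 1 or 2 (adjusted p = 0.12 and 0.26), Mki67 without TKO replicate 1 or DKO replicate 1 (0.084 and 0.073), Cd40lg without TKO replicate 2 (0.074) and Tnfsf8 without TKO replicate 1 (0.053). Leaving out TKO replicate 2 reduced the genes called to 81 of 6697, TKO replicate 1 to 131 of 6148 and DKO replicate 2 to 161 of 7317.

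The sequences upstream of 5 genes that differed between CD8 and CD4 T cells were read because RUNX3 and the T-box factors EOMES and T-bet are known factors of cytotoxic lymphocytes. The 250 bases before the RefSeq start on GRCm38.p6, printed 5-prime to 3-prime on the strand of the gene, were chr14:56262335-56262584 for Gzmb, chr6:129678974-129679223 for Klrc1, chr13:113180966-113181215 for Gzmk and chr4:63861285-63861534 for Tnfsf8, all on the minus strand, and chr9:118477939-118478188 for Eomes on the plus strand. They were chosen with their matches known and do not represent the called genes. Capitals mark the RUNX core TGTGGT, read as ACCACA on the other strand, in Gzmb and Klrc1, and the T-box core GGTGTGA, read as TCACACC on the other strand, in Gzmk. The letters of the 2 cores can overlap where both occur.
Gzmb: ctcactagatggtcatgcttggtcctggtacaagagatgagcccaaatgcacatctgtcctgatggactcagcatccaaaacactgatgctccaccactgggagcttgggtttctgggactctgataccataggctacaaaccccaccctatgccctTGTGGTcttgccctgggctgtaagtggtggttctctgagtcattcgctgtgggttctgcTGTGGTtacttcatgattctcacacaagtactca
Klrc1: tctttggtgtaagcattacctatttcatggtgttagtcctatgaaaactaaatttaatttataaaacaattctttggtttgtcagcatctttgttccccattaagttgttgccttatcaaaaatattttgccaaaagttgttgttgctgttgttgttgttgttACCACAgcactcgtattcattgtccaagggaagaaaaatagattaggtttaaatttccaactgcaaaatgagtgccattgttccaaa
Gzmk: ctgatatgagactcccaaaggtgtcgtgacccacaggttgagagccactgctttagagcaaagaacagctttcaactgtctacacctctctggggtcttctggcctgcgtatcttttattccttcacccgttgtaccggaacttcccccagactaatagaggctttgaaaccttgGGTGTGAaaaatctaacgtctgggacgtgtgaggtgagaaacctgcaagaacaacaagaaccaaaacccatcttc
Eomes: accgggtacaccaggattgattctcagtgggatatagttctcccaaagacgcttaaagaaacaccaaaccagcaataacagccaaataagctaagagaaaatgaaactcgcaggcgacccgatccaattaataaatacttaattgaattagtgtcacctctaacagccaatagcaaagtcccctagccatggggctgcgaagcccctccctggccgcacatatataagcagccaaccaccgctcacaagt
Tnfsf8: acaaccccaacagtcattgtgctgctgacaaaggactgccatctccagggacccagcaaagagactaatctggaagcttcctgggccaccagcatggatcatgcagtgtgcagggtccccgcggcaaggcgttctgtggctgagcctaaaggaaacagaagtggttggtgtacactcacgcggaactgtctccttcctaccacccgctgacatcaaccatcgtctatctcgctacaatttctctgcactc
Gzmb held 2 RUNX cores, Klrc1 held 1 and Gzmk held 1 T-box core, and neither core was found in this window of Eomes, which was higher in CD8 T cells, or of Tnfsf8, which was lower. Of 32851 RefSeq promoters of this length, 14% held the RUNX core and 3.33% the T-box core, and of the 7235 promoters of genes tested these were 10.8% and 2.82%. Of the 97 promoters of genes higher in CD8 than in CD4 T cells, 17 (17.5%) held the RUNX core and 8 (8.25%) the T-box core, against 9.50% and 3.50% of the 200 promoters of genes that were lower. These are matches of letters, described without a test, and not sites.

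NK cells, gated by 0 Cd3 UMIs, at least 2 UMIs of Ncr1 and Klrb1c and 0 Cd8, Cd4 and Foxp3 UMIs, numbered 36 and 29 in TKO and 4 and 22 in DKO, so DKO replicate 1 adds little. Of 7052 genes, 252 were higher in CD8 T cells than in NK cells (3.57%) and 185 lower (2.62%). Since the gates differ in Cd3, receptor genes that accompany Cd3 were bound to differ: 11 of 15 tested genes of the T cell receptor list were called higher, such as Trac (348, 355, 250 and 365 CPM in CD8 T cells, 13.7, 17.8, 0 and 10.8 CPM in NK cells). The genes below were not used by the gates.

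Of the list of inhibitory receptor and exhaustion genes, 7 of 20 tested were called higher than in NK cells and 0 lower (median 1.12, against 0.02 over all genes tested). These 7 include Tnfrsf4 and Rgs16, which do not encode inhibitory receptors. Pdcd1 had 593, 564, 179 and 371 CPM in CD8 T cells and 0, 33.0, 0 and 2.15 CPM in NK cells (5.59 ± 0.78, adjusted p = 0.0058). Gzmk had 1.71, 2.54, 14.1 and 2.15 CPM in NK cells (6.05 ± 0.46, adjusted p = 4.0e-06), so it was higher in CD8 T cells than in both other gates. The residence and migration receptor gene Cxcr6 had 167, 166, 99.0 and 249 CPM in CD8 T cells and 22.2, 25.4, 14.1 and 66.8 CPM in NK cells (2.41 ± 0.29, adjusted p = 0.0002). Neither Pdcd1 nor Cxcr6 was called against CD4 T cells. There Pdcd1 had 193, 230, 272 and 213 CPM and Cxcr6 had 173, 96.3, 191 and 304 CPM. Genes induced by interferon gamma were called higher in 8 of 20 and lower in 0 (median 0.99), among them Nlrc5, a regulator gene of class I molecules, the peptide transporter gene Tap1 and the proteasome genes Psmb8 and Psmb9. Type I interferon genes were called higher in 5 of 18 and lower in 0 (median 1.35), and the 2 lists overlap. Against CD4 T cells 0 genes of either interferon list were called (median -0.04 for each), so these differences are from NK cells only.

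Granule genes went both ways against NK cells: of 16 tested, Gzmk, Ctsc and Rab27a were called higher and Gzmc, Serpinb9 and Prf1 lower, with a median of -0.12. Without mixed cells Ctsc was no longer called and Ctsw was called lower. Ctsc, the gene of the protease that activates granzymes, had 185, 136, 239 and 120 CPM in CD8 T cells and 82.1, 55.9, 14.1 and 34.5 CPM in NK cells. Prf1 had 44.1, 34.7, 24.7 and 18 CPM in CD8 T cells and 330, 338, 56.3 and 162 CPM in NK cells (-2.92 ± 0.36, adjusted p = 0.00045), and Gzmc had 38.2, 32.7, 0 and 52.9 CPM against 1030, 424, 14.1 and 926 CPM (-4.23 ± 0.28, adjusted p = 8.2e-07). Prf1 therefore lay between CD4 T cells and NK cells. Of the NK receptor list, 6 of 12 tested were lower and 0 higher (median -2.12). Klra8 had 7.82, 0, 0 and 0 CPM against 590, 582, 436 and 286 CPM (-7.31 ± 0.64), and Klra4 differed by -6.19 ± 0.92. Klra genes are close relatives, so reads may be shared among them. Itga2, the gene of the integrin CD49b, was lower (-4.37 ± 0.62). Among the 7052 genes in both comparisons, 9 were lower in CD8 T cells than in both other gates, and 13 were higher than in both. The 2 comparisons share the same CD8 sums, so they are not independent. Beside Gzmk these 13 were Abcb1a, Abr, Bend4, Gm44174, Mki67, Ms4a4b, Pakap, Pde3b, Ppp2r2c, Rgs16, Tcrg-C2 and Tubb5. Without mixed cells 29 genes were higher than in both, and Rgs16 and Tubb5 were not among them. Tgfbi, a macrophage gene, had 64.4, 2.97, 223 and 49.9 CPM in CD8 T cells and 1.71, 0, 0 and 2.15 CPM in NK cells, and without mixed cells it was too low to be tested. Pdcd1 was not called without DKO replicate 2 (adjusted p = 0.064), Mki67 without TKO replicate 1 or DKO replicate 1 (0.073 and 0.087), and Klra4 without TKO replicate 2, DKO replicate 1 or DKO replicate 2 (0.083, 0.063 and 0.067). Leaving out TKO replicate 1 reduced the genes called to 167 of 6146 and leaving out TKO replicate 2 to 234 of 6695.

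**Figure D4:**
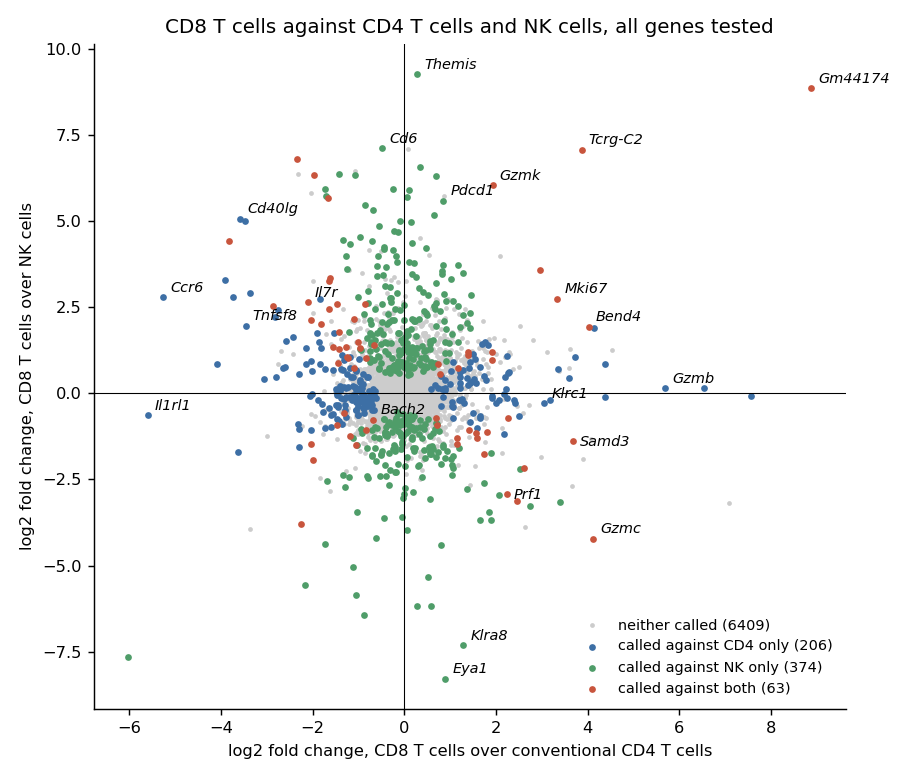
Log2 fold change of each gene in CD8 T cells over conventional CD4 T cells (horizontal) and over NK cells (vertical), for 7052 genes, coloured by the comparison in which the edgeR adjusted p was under 0.05. Gzmk and Tcrg-C2 lie high in both comparisons, and Gzmb lies high against CD4 T cells and near 0 against NK cells. Folds of genes at or near 0 UMIs in a gate, such as Gm44174, Themis and Eya1, depend on the prior count of the fit.

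Between genotypes, 17 of 8654 genes were called in CD8 T cells with all members, all lower in TKO (0.196%), and 0 were called higher (0%). At an unadjusted p under 0.05 there were 626. Beside those described here the 17 were Col1a2, Cpxm1, Fn1, Smoc2, Meg3, Csf1, Pdpn, Col5a2, Fstl1, Fgfr1, Fndc1, Cfb and Cthrc1. Col1a1 had 120 and 107 CPM in TKO and 3616 and 2218 CPM in DKO (-4.75 ± 0.28, SE, n = 2, adjusted p = 0.0097). Col3a1 had 250 and 292 CPM in TKO and 3336 and 2863 CPM in DKO (-3.58 ± 0.18, adjusted p = 0.0080). Both are fibrillar collagen genes of fibroblasts, and Sparc, a matrix protein gene (-4.22 ± 0.24), and Ptgis, the prostacyclin synthase gene (-3.85 ± 0.33), were among the rest. The 8 fibroblast markers summed to 866 and 1466 CPM in TKO and 16238 and 10215 CPM in DKO. Col1a1, Col3a1 and Sparc are among these markers, which helped choose the mixed cells. A smaller difference of these genes without mixed cells was thus partly set in advance. Without the 17 mixed cells Col1a1 had 96.7 and 80.7 CPM in TKO and 63.3 and 72.7 CPM in DKO, and 0 of 7852 genes were called by edgeR (0%), with 378 at an unadjusted p under 0.05. DESeq2 on the same 238 cells called 4, all lower in TKO: Plac8, Klrk1, Ly6c2 and Satb1. The genotype values below are therefore given without mixed cells, with those of all members beside them for part of the genes. None passed the edgeR test over all genes.

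The genes with the smallest p included receptors of NK type, the effector factor gene Tbx21 and Satb1, with lower values in TKO. Separation of the libraries was part of the rule that chose the leading genes by p, so it adds no support for them. Klrk1 had 88.2 and 62.1 CPM in TKO and 268 and 225 CPM in DKO without mixed cells (-1.72 ± 0.25, adjusted p = 0.33), and 84.2 and 67.4 CPM in TKO and 165 and 191 CPM in DKO with all members (-1.30 ± 0.22). Both TKO libraries lay below both DKO libraries either way. Klrd1, which encodes CD94, had 131 and 107 CPM in TKO and 282 and 211 CPM in DKO (-1.06 ± 0.24, and -0.61 ± 0.22 with all members). Tbx21, the T-bet gene, had 65 and 69.3 CPM in TKO and 146 and 149 CPM in DKO (-1.19 ± 0.23, adjusted p = 0.69, and -0.90 ± 0.22 with all members). Satb1, a chromatin organiser of T cells, had 310 and 228 CPM in TKO and 877 and 507 CPM in DKO (-1.38 ± 0.28). Gpr55, a lipid receptor gene chosen because an earlier account of these data called it in T and NK cells, had 2.26 and 6.21 CPM in TKO and 29.2 and 48.9 CPM in DKO (-3.51 ± 0.57, adjusted p = 0.40). With all members these were 4 and 6 UMIs in TKO and 6 and 41 UMIs in DKO. Of 11 tested receptors of the NK type 9 had negative values without mixed cells (median -1.05, against -0.01 over all genes tested), and 10 of 12 with all members (median -0.56). The list of effector factors and receptors had 11 negative values of 16 tested without mixed cells (median -0.40).

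In the other direction stood some exhaustion and granule genes and Eomes, named by level, small p or fixed name from lists that went both ways. Tox had 789 and 693 CPM in TKO and 390 and 472 CPM in DKO without mixed cells (0.72 ± 0.20, adjusted p = 0.95), and 679 and 674 CPM in TKO and 247 and 408 CPM in DKO with all members (0.96 ± 0.27). Pdcd1 had 696 and 585 CPM in TKO and 282 and 435 CPM in DKO (0.75 ± 0.24, and 0.98 ± 0.36 with all members). Eomes had 176 and 149 CPM in TKO and 97.4 and 78.7 CPM in DKO (0.88 ± 0.24), opposite in sign to the related Tbx21. Gzmk had 276 and 243 CPM in TKO and 214 and 131 CPM in DKO (0.62 ± 0.26, and 0.87 ± 0.19 with all members), Prf1 had 52.6 and 36.2 CPM in TKO and 34.1 and 21.5 CPM in DKO (0.79 ± 0.38), and Rab27a, the gene of a GTPase of granule release, had 116 and 98.3 CPM in TKO and 58.4 and 50.1 CPM in DKO (0.97 ± 0.27). Both TKO libraries lay above both DKO libraries for each of these, but part of them were chosen by small p or by that separation. Without mixed cells Lag3, of the exhaustion list, overlapped, with 40.7 and 66.2 CPM in TKO and 48.7 and 71.5 CPM in DKO. So did Gzmb, of the granule list, with 800 and 393 CPM in TKO and 424 and 1448 CPM in DKO. The lists as a whole were mixed: 12 of 22 exhaustion genes and 8 of 17 granule genes had positive values without mixed cells (medians 0.14 and -0.07). Dscam, an adhesion molecule gene (1.34 ± 0.25), and Ret, a receptor kinase gene (1.87 ± 0.33), were named after their values were seen. Ret had 138 and 200 CPM in TKO and 29.2 and 50.1 CPM in DKO.

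Of the S phase genes, 17 of 18 tested had positive values without mixed cells (median 0.72) and 19 of 19 with all members (median 0.83), with 0 called. Over all genes tested 49.2% of values were positive without mixed cells and 50.8% with all members. Mcm3 had 54.9 and 59.0 CPM in TKO and 19.5 and 28.6 CPM in DKO (1.06 ± 0.34), and Mcm6 had 131 and 129 CPM in TKO and 63.3 and 78.7 CPM in DKO (0.76 ± 0.25). Both encode parts of the replicative helicase. Of the type I interferon genes 17 of 18 had negative values without mixed cells (median -0.63), against 16 of 19 with all members (median -0.25), and 0 were called. The AP-1 and immediate early genes had a median of -0.38 without mixed cells and -0.92 with all members. DKO replicate 1 keeps 14 cells without the mixed ones.

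**Figure D5:**
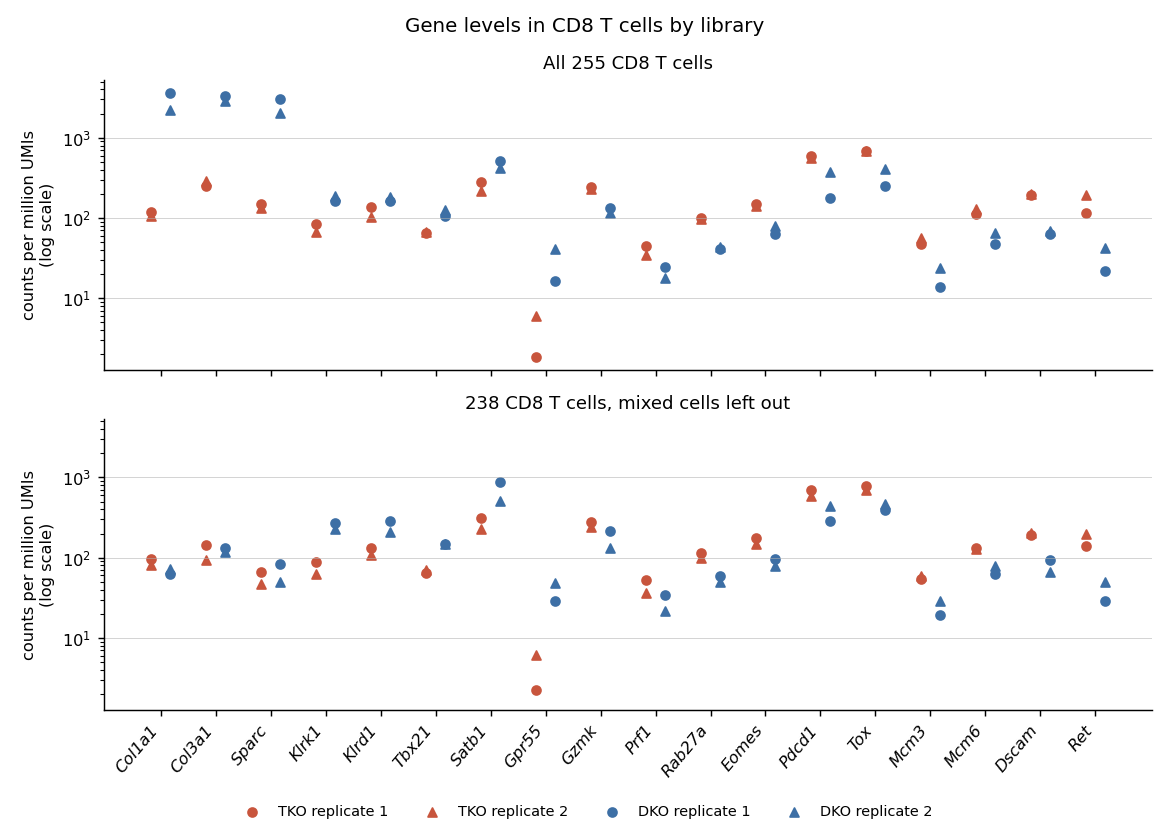
CPM (log scale) of named genes in CD8 T cells of each library, TKO left of DKO, with all 255 members (top) and with 238 members, mixed cells left out (bottom). The collagen genes and Sparc lose their difference in the lower panel, with Col1a1 at 96.7 and 80.7 CPM in TKO and 63.3 and 72.7 CPM in DKO. They are among the markers that chose the cells left out. Klrk1, Tbx21, Satb1 and Gpr55 have lower values in TKO in both panels and Tox, Eomes and Rab27a higher ones.

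Whether a genotype difference was particular to CD8 T cells was tested by the interaction of genotype and gate against conventional CD4 T cells. With all cells 1 of 8208 genes was called (0.0122%), AA467197, and 476 had an unadjusted p under 0.05. It differed by -3.83 ± 0.35 on the log2 scale (adjusted p = 0.021), with 46.4 and 8.92 CPM in TKO and 627 and 115 CPM in DKO in CD8 T cells, and 382 and 51.9 CPM in TKO and 315 and 73.9 CPM in DKO in CD4 T cells. Without mixed cells the same value was 3.25 ± 1.12 and was not called (adjusted p = 0.79), and 2 other genes were. Mmd (3.11 ± 0.43, adjusted p = 0.043) then had 97.3 and 95.1 CPM in TKO and 29.2 and 62.0 CPM in DKO in CD8 T cells, and 36.6 and 50.9 CPM in TKO and 123 and 268 CPM in DKO in CD4 T cells. Pclaf, a replication factor gene (adjusted p = 0.025), had 180 and 165 UMIs in TKO and 1 and 68 UMIs in DKO in CD8 T cells, and 0 and 0 UMIs in TKO and 1 and 18 UMIs in DKO in CD4 T cells, so its fold rests on sums at 0. Both were named after their values were seen. For Klrk1, Tbx21, Tox and the other genes named between genotypes, a difference from CD4 T cells was thus not called.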

How the data were processed

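Single-cell 3-prime UMI counts of 4 libraries (2 TKO, 2 DKO) were analysed as deposited; per the submitters' processing notes they were made by the authors with Cell Ranger 7.0.0, STAR and mm10. The UMI counts were not normalized, per the file contents (whole numbers). Members, gates and gene lists were chosen with earlier results of these data known. Counts were summed per library and gate, and genes passing filterByExpr were tested with edgeR 4.0.16 (quasi-likelihood, robust, TMM scaling) in R 4.3.3 with Benjamini-Hochberg adjustment over all genes tested at 0.05. The genotype contrast used the 4 CD8 sums. The gate contrasts used all 3 gates with library as a block, and left out the genes that define the gates. CPM are counts over the summed UMIs. Shares were compared by exact permutation over libraries and carry exact (Clopper-Pearson) intervals at 95%. No doublet caller was run; cells with more than 1% of UMIs from markers of other classes were left out as an alternative chosen after seeing the data, as was leaving out cells with 3 or more G2 and M phase UMIs. Other alternatives were DESeq2 1.42.0, no filter on low counts, a stricter gate of 3 Cd8 UMIs, upper quartile scaling, cells above 40000 UMIs left out, each library left out, and a replicate block. Named genes between genotypes were up to 12 each way by p among those that separated the libraries and reached 50 CPM, and between gates up to 12 each way by fold among those changed in 4 of 4 libraries, with the leading genes of each list and fixed names. Gm44174, Dscam, Ret, AA467197 and the DESeq2 calls were named after their values were seen. Scripts were tested on simulated data. Hashtag assignments were those of the deposited libraries. Some genes and alleles are not reported here.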

Additional observations from a re-analysis of the deposited data

Results flagged for a closer look

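AA467197 differed between gates in its response to genotype: the TKO over DKO change in CD8 T cells minus that in conventional CD4 T cells was -3.83 ± 0.35 on the log2 scale (SE, edgeR interaction, adjusted p = 0.021). Its summed levels were 46.4 and 8.92 CPM in TKO and 627 and 115 CPM in DKO in CD8 T cells. In CD4 T cells they were 382 and 51.9 CPM in TKO and 315 and 73.9 CPM in DKO. The 2 libraries of each genotype lay far apart in both gates, and the sign turned without mixed cells.

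Hashtags assigned to none of the 4 libraries, a0307 and a0308, had 2291 UMIs in the members, 0.346% of their hashtag UMIs. These features are outside the comparisons and have no control samples.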

How the results depend on the processing

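Between genotypes the 17 calls became 126 with DESeq2, 365 with no filter on low counts, 13 with the stricter gate, 15 with upper quartile scaling, and 0 without mixed cells (4 with DESeq2), without cells above 40000 UMIs or without cells with 3 or more G2 and M phase UMIs; leaving out each library gave 5 to 93. No pairing was taken from the replicate numbers, which 2 pairs cannot establish (correlation of deviations 0.27 over 8654 genes); a replicate block gave 81 calls. Against CD4 T cells 708 genes were called with no filter and 459 without mixed cells, and leaving out each library gave 81 to 314; against NK cells 1050 were called with no filter, and leaving out each library gave 167 to 437. The interaction gave 4 calls with DESeq2, 114 with no filter, 14 with the stricter gate, 2 without mixed cells, 0 without cycling cells and 0 to 11 without each library.

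Among the genes followed through every alternative, signs turned for Col3a1 (0.65), Col1a1 (0.66) and Sparc (0.91) without cells above 40000 UMIs, for Col1a1 without mixed cells (0.30, and 0.31 with DESeq2), for Smad4 without cycling cells (0.15), for Pygo2 without DKO replicate 2 (-0.14, against 0.46 without DKO replicate 1) and for AA467197 without mixed cells (3.25). Of the other genes called between genotypes, at least Fn1 (1.41), Col5a2 (0.60) and Col1a2 (0.29) also turned without mixed cells; the mixed and deep cells overlap, and other causes were not tested. Of 22 genes under 196 alternatives against CD4 T cells, 176 values kept their call and 20 lost it, and of 14 genes under 125 against NK cells 116 kept it and 9 lost it, with 0 reversals in either. The share of kept cells stayed higher in TKO by 2.67 to 6.37 points without each library, and that of Cd3-positive cells by 5.23 to 20 points. Leaving out members with 3 or more myeloid marker UMIs could not be fitted, because it leaves 0 cells in DKO replicate 1. With 17 members, DKO replicate 1 limits every genotype value.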
